A study of Homo sapiens with 39 samples.

Results

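Clusters of U2AF1 contacts that the deposited annotation places on a stop codon numbered 1616 of 148336 PAR-CLIP clusters. They were chosen by the annotation category alone, not by any measured value. The S34F cytoplasm list held 243 of 28828 clusters in this category, the WT cytoplasm list 255 of 26613 and the WT chromatin list 1118 of 92895. They lay in 236, 248 and 979 genes in the same order, 1281 genes in all, of which 446 had such a cluster in a cytoplasmic list.

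PAR-CLIP crosslinks a protein to 4-thiouridine in RNA and reads the contacts as T-to-C conversions. The cells were Flp-In-293, derived from the embryonic kidney line HEK 293, and expressed FLAG-HA tagged U2AF1. The tagged protein carried the S34F mutation (cytoplasm only) or was wild type (WT, cytoplasm and chromatin), and each deposited list pools 2 replicates. The genes were followed in another cell type, human bronchial epithelial cells (HBEC), as a U2AF1 S34F line, a line labelled Frame Shift (FS) and a WT line. Each HBEC line gave 1 library of U2AF1 immunoprecipitate (IP), 1 of control immunoglobulin precipitate (IgG), 1 of cytosolic RNA and 8 of polysome gradient fractions. The labels do not say which U2AF1 allele carries the frame shift or whether a line is a clone, and the tagged U2AF1 of the 293 cells was added to cells that have their own.

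U2AF1 is the small subunit of the factor that marks the 3′ splice site: it reads the AG at the end of the intron, while its partner U2AF2 binds the pyrimidine tract before that AG. S34F is a recurrent cancer mutation in a zinc finger of U2AF1 and alters the choice of 3′ splice sites. A stop codon is where release factors end translation, and it usually lies in the last exon, so that the last 3′ splice site, the stop codon and the 3′ UTR can stand close together. Replication-dependent histone mRNAs are different in that they end in a conserved stem-loop in place of a poly(A) tail.

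The sequences below are selected examples of sites in the category and do not show its make-up. Each is a stretch of at most 30 bases of a deposited cluster, written 5′ to 3′ on the RNA strand. Positions are those of the lists, whose genome build is not given in the sources used here. In the first group the capitals mark a CAG or TAG preceded by at least 8 pyrimidines in 10 bases, the form of a 3′ splice site. These clusters of UCHL5 (a deubiquitinase), ATP5C1 (an ATP synthase subunit) and DDX46 (a helicase of the U2 snRNP pathway) came from S34F cytoplasm, those of MAT2A (S-adenosylmethionine synthesis) and SEC61G (a translocon subunit) from WT cytoplasm, and those of ATG4B (an autophagy protease), CLK1 (a kinase of splicing factors) and HNRNPU (a nuclear RNA-binding protein) from WT chromatin. Other deep clusters that met this rule, such as those of SRSF2, TFDP1, SNRNP70 and THOC1, are not shown.
UCHL5, chr1:192987939-192987968, minus strand: actgtgttttgttttCAGggaaaataggat
ATP5C1, chr10:7849610-7849639, plus strand: tttgtttttCAGgtaaagaaggaaaattca
DDX46, chr5:134125778-134125807, plus strand: taatatgtttttttcTAGgtgatgctgtca
MAT2A, chr2:85770901-85770930, plus strand: ttagccttttttcccCAGacttgttggcgt
SEC61G, chr7:54820061-54820090, minus strand: gagagtttttcatctTAGagattggtgaac
ATG4B, chr2:242611588-242611617, plus strand: atgtcctgttccttcTAGattcttctgatg
CLK1, chr2:201724458-201724487, minus strand: tttatttctctctttTAGatgaaattgttg
HNRNPU, chr1:245017793-245017822, minus strand: aaaattttctcttaCAGcaattctggggtc

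In the second group, of clusters no longer than 30 bases, the capitals mark the only stop-codon triplet in the whole cluster. LMBR1 came from S34F cytoplasm, PRIM1 (a primase subunit) and ORC6 (an origin recognition subunit) from WT cytoplasm, and FAM118A and SF3A1 (a U2 snRNP protein) from WT chromatin. The groups are not exclusive, as the LMBR1 cluster also meets the rule of the first group. The reading frame is not in the files, so a triplet was not tied to the annotated stop codon.
LMBR1, chr7:156619426-156619450, minus strand: cctttcttccaggttgttttTGAgc
PRIM1, chr12:57125487-57125512, minus strand: aaaaagatttcTGAagacagagctcc
ORC6, chr16:46725002-46725025, plus strand: agcttcctggaTGAagtgcccctt
FAM118A, chr22:45736261-45736285, plus strand: aaacagaTGAtgctggagggtcttg
SF3A1, chr22:30738850-30738876, minus strand: tatttcagatctTGAttccacccaaag

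In the third group the capitals mark the histone stem-loop, searched by its 16 conserved letters, 3 of them free, on the RNA strand only. The clusters of HIST1H4B, HIST1H4A (both histone H4) and HIST1H2BJ (histone H2B) came from S34F cytoplasm and that of HIST1H2AH (histone H2A) from WT cytoplasm.
HIST1H4B, chr6:26027129-26027158, minus strand: agttttcttccaatGGCCCTTTTCAGGGCC
HIST1H4A, chr6:26022244-26022273, plus strand: atttctgaaccaaaGGCCCTTTTCAGGGCC
HIST1H2BJ, chr6:27100100-27100129, minus strand: ctctcaaccctaacGGCTCTTTTAAGAGCC
HIST1H2AH, chr6:27115311-27115340, plus strand: aactggaaaacaaaGGCTCTTTTCAGAGCC

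The last group shows stretches covered by a cluster in all 3 lists, with every stop-codon triplet in capitals. FUBP1 is a single-strand DNA- and RNA-binding regulator of MYC, AURKB a mitotic kinase, PPP1CC a catalytic subunit of protein phosphatase 1, and MRPL42 a mitochondrial ribosomal protein.
FUBP1, chr1:78413176-78413201, minus strand: TAGgggTGAggaggactgtgctgtgt
AURKB, chr17:8109839-8109868, minus strand: gctcaagggagagcTGAagattgcTGActt
PPP1CC, chr12:111158853-111158882, minus strand: agatgtcgtttTGAcactgccTAGtcggga
MRPL42, chr12:93873170-93873191, plus strand: agagcttgctcTGActtcTGAt

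Stop codons took a small share of U2AF1 clusters in every list, and the chromatin list held the highest. The share of clusters was 0.843% in S34F cytoplasm (95% exact interval 0.741 to 0.955) and 0.958% in WT cytoplasm (0.845 to 1.08), and these intervals overlapped. WT cytoplasm, with 0.958%, stood below WT chromatin, with 1.20% (1.13 to 1.28). Counted by reads, the share was 0.787% in S34F cytoplasm, 1.08% in WT cytoplasm and 1.98% in WT chromatin. Among clusters on coding exons, UTRs, start and stop codons it was 1.75%, 1.80% and 2.88% in the same order. Among clusters of at least 20 reads the order changed, with 1.53% in S34F cytoplasm, 1.54% in WT cytoplasm and 1.41% in WT chromatin, and the intervals of all 3 overlapped. With 1 pooled list per condition there is no replicate check between lists, and the intervals cover counting error only. The lists also differed in depth, with 658110, 526075 and 4723555 cluster reads, of which 270277, 181579 and 678235 were distinct.

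**Figure D1:**
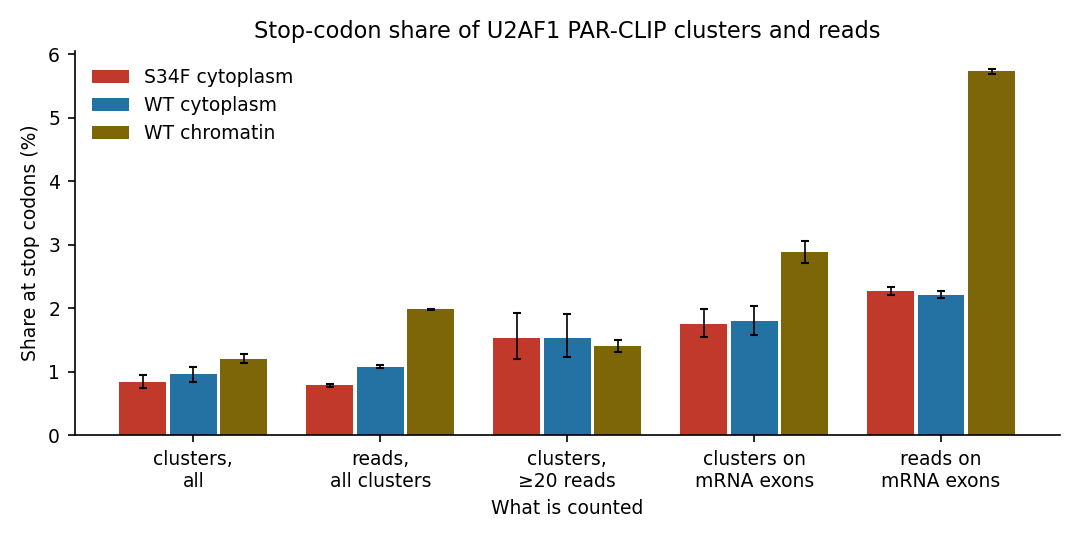
Share of clusters or of cluster reads placed on stop codons in the 3 PAR-CLIP lists, in percent, for 5 ways of counting, where mRNA exons are coding exons, UTRs, start and stop codons. Bars are shares and whiskers 95% exact binomial intervals; WT chromatin is highest in 4 of them and has 1.41%, the lowest share, among clusters of at least 20 reads.

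Clusters of the cytoplasmic lists were mostly shallow, and those at stop codons less so than all clusters. At stop codons 72 of 243 in S34F and 83 of 255 in WT cytoplasm had 20 reads or more, and 877 of 1118 in WT chromatin. Over all clusters these counts were 4701 of 28828, 5393 of 26613 and 62359 of 92895. The median length of stop-codon clusters was 34 bases in S34F cytoplasm, 33 in WT cytoplasm and 35 in WT chromatin, against 27, 28 and 29 for coding-exon clusters of the same lists. The median stop-codon cluster held 13 reads in S34F cytoplasm, 14 in WT cytoplasm and 40 in WT chromatin, against 11, 13 and 29 for coding-exon clusters. The median fraction of converted reads at stop codons was 0.714, 0.667 and 0.944. Distinct reads made up 47.8% of the reads in S34F cytoplasm and 37.1% in WT cytoplasm, but 14.2% in WT chromatin.

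Nearly all stop-codon clusters held a triplet of the stop-codon kind, and TGA was the most frequent. The clusters were chosen by their annotation on a stop codon, so this high share largely follows from the choice. TAA, TAG or TGA was present in 94.7% of stop-codon clusters of S34F cytoplasm, 94.1% of WT cytoplasm and 94.4% of WT chromatin. Start-codon clusters held such a triplet in 64.3%, 59.9% and 78.7%, and coding-exon clusters, which were shorter, in 65.7%, 62.5% and 71.6%. Among clusters with only 1 kind of stop triplet, that kind was TGA in 76.7% of 150 in S34F cytoplasm, 79.9% of 149 in WT cytoplasm and 72.3% of 570 in WT chromatin. A TGA can also stand out of frame, so these are shares of clusters with the letters and not of genes that end in them.

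The form of a 3′ splice site, searched on the RNA strand as CAG or TAG with at least 8 C or T in the 10 bases before it, was present in 37 of 243 stop-codon clusters of S34F cytoplasm (15.2%, exact interval 10.95 to 20.4). In WT cytoplasm it was present in 12 of 255 (4.71%, 2.45 to 8.08), so these intervals did not overlap. In WT chromatin 184 of 1118 held it (16.5%, 14.3 to 18.8). Coding-exon clusters, which were shorter, stood at 3.91%, 3.74% and 4.96% in S34F cytoplasm, WT cytoplasm and WT chromatin. Clusters that span an intron and the following coding exon stood at 39.7%, 41.2% and 39.2%. For start-codon clusters the shares were 5.02%, 5.20% and 17.8%. Cluster length was not matched between these categories. The triplet after the tract was CAG in 31 and TAG in 6 clusters of S34F cytoplasm, CAG in 9 and TAG in 3 of WT cytoplasm, and CAG in 114 and TAG in 70 of WT chromatin. CAG anywhere in the cluster occurred in 57.6% in S34F cytoplasm, 49.8% in WT cytoplasm and 62.5% in WT chromatin, AAG in 62.1%, 59.2% and 67.2%, and TTTT in 22.2%, 13.7% and 26.7%. The tract search was chosen after the sequences had been seen, and pieces of pre-mRNA in the cytoplasmic lists were not measured apart from mRNA.

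**Figure D2:**
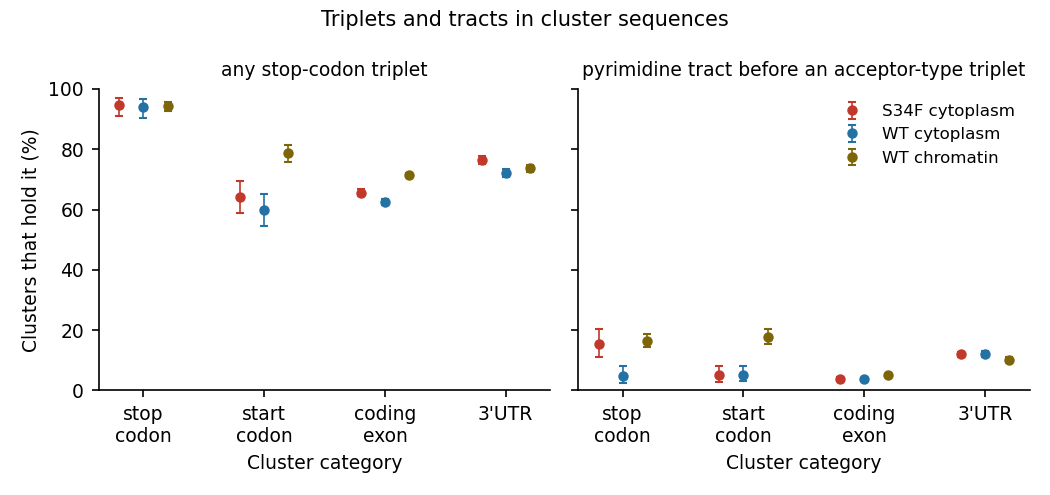
Percent of clusters of each annotation category (stop codon, start codon, coding exon, 3′ UTR) that hold a stop-codon triplet (left) or a pyrimidine tract followed by CAG or TAG (right), in the 3 lists. Points are shares with 95% exact binomial intervals, which cover counting error only. Stop-codon clusters stand near 94% on the left. On the right S34F cytoplasm (15.2%) stands above WT cytoplasm (4.71%), without a replicate check.

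The most abundant sites differed between the lists. In S34F cytoplasm the 10 clusters with most reads were those of HIST1H1C (linker histone H1, 229 reads), UCHL5 (216), HIST1H4B (178), ATP5C1 (108), PPP1CC (95), the SR protein gene SRSF2 (94), HIST1H4A (90), the replicative helicase subunit gene MCM7 (79), the E2F partner gene TFDP1 (78) and HIST1H2BJ (76). In WT cytoplasm they were those of the ribosomal protein gene RPL18 (317), the nucleic acid-binding protein gene CNBP (222), the splicing regulator gene HNRNPH1 (209), HIST1H2AH (126), the p53 ligase gene MDM2 (109), the importin gene KPNB1 (106), RPS23 (97), the hypusine synthesis gene DHPS (91), RP4-734P14.4 (83) and the 14-3-3 gene YWHAE (79). In WT chromatin they were ATG4B (2854), CLK1 (2242), the mRNA export factor gene THOC1 (1899), HNRNPU (1598), the sorting nexin gene SNX2 and ATP5C1 (1431 each), the nucleosome-binding protein gene HMGN1 (1426), the splicing factor gene RBM39 (1155), HNRNPH1 (1086) and RPL23A (844). No gene was among the 10 of both cytoplasmic lists. The fraction of converted reads was low in several of them: 0.148 for UCHL5 in S34F cytoplasm, 0.170 for RPL18 and 0.0549 for DHPS in WT cytoplasm, against 0.956 for ATG4B in chromatin.

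Histone mRNAs held 8 of the stop-codon clusters of S34F cytoplasm, with 750 reads or 14.5% of all stop-codon reads of that list. In WT cytoplasm 2 histone genes, HIST1H2AH and HIST1H3E, held 138 reads or 2.43%, and in WT chromatin no stop-codon cluster was on a histone gene. Any cluster was present in 25, 17 and 17 of 73 histone genes in S34F cytoplasm, WT cytoplasm and WT chromatin, with 45, 23 and 33 clusters. Of all genes with any cluster, 3.41%, 3.28% and 10.3% had a stop-codon cluster in these lists, and the difference was not tested. In S34F cytoplasm the other histone genes were HIST1H4E (66 reads), HIST4H4 (40), HIST1H3H (39) and HIST1H4D (32). The stem-loop letters were in 3 stop-codon clusters of S34F cytoplasm, 1 of WT cytoplasm and 0 of 1118 of WT chromatin. Without histone genes, stop codons took 0.676% of the reads of S34F cytoplasm. Histone genes are near-identical copies, so the gene a cluster was assigned to is uncertain, and the group was chosen after the reads had been seen.

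Genes of the RNA-processing machinery were present in all 3 lists. Of all genes with any cluster, 3.41% had a stop-codon cluster in S34F cytoplasm, 3.28% in WT cytoplasm and 10.3% in WT chromatin. SR proteins, which bind exonic enhancers, had stop-codon clusters in 5 of 14 genes in S34F cytoplasm (SRSF2, 94 reads; TRA2B, 67; SRSF1, 55; SRSF7, 37), in 1 in WT cytoplasm (SRSF6, 45) and in 9 in WT chromatin (SRSF7, 1037; SRSF1, 1021; TRA2B, 455; SRSF4, 179). Among 24 hnRNP genes, 2 had one in S34F cytoplasm (HNRNPA1, 25 reads; HNRNPK, 5), 3 in WT cytoplasm (HNRNPH1, 209; HNRNPM, 12; HNRNPA1, 11) and 7 in WT chromatin. Among 18 genes of 3′ splice-site recognition, DDX46 (73 reads) had one in S34F cytoplasm, SF3B1 (42), SF1 (30) and RBM39 (7) in WT cytoplasm, and 6 in WT chromatin, led by RBM39 (1541) and SF3B1 (786). Any cluster, in the same order of lists, was present in 12, 12 and 12 SR protein genes and in 22, 22 and 23 hnRNP genes. For 3′ splice-site recognition it was present in 13, 11 and 14 genes. SR protein genes held 127, 101 and 292 clusters of any category, and hnRNP genes 322, 227 and 646. Differences from all genes were not tested. U2AF1 itself had 47 stop-codon reads in WT chromatin and no stop-codon cluster in either cytoplasmic list.

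The small lists that follow stand against the same shares with a stop-codon cluster, 3.41%, 3.28% and 10.3% of genes with any cluster. Their counts are over whole lists, so the number of genes with any cluster is given beside them. None of 12 translation termination genes had a stop-codon cluster, where 9, 9 and 10 of them had any cluster in the 3 lists. Of 18 nonsense-mediated decay genes, none had one in the cytoplasmic lists and 4 in chromatin (UPF2, 32 reads; NCBP2, 22; SMG9, 21; EIF4A3, 15). Any cluster was present in 15, 16 and 16 of them. Of 36 listed symbols of selenoprotein genes, whose mRNAs decode a TGA as selenocysteine, 3 had one in chromatin (SEPW1, 23 reads; EPT1, 14; SEPN1, 8). Only 11 of these symbols had any cluster in S34F cytoplasm, 13 in WT cytoplasm and 11 in chromatin. Of 12 genes listed for stop-codon readthrough 3 had one in chromatin (SACM1L, 55 reads; MDH1, 35; VEGFA, 24), where 6 had any cluster. Neither the selenoprotein nor the readthrough list had one in the cytoplasm, where 6 readthrough genes in S34F and 7 in WT had any cluster. Ribosomal proteins had stop-codon clusters in 5 genes in S34F cytoplasm (RPL18, 74 reads; RPL37A, 59; RPL23A, 26; RPS29, 11), 2 in WT cytoplasm (RPL18, 317; RPS23, 97) and 12 of 81 in WT chromatin. Any cluster was present in 55, 59 and 70 of these genes. Proteasome subunits had them in 3, 4 and 5 of 31 genes, chaperones in 4, 1 and 8 of 23, initiation and elongation factors in 2, 1 and 8 of 32, glycolysis in 0, 1 and 3 of 17, and tubulin and actin in 1, 0 and 0 of 12. In the order of these lists, any cluster was present in 29, 29 and 29 genes, 20, 20 and 19, 29, 29 and 30, 12, 13 and 14, and 6, 6 and 6.

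Stop-codon sites were shared between lists about as often as coding-exon sites. Of the stop-codon clusters of S34F cytoplasm, 29 of 243 overlapped one of WT cytoplasm by at least 1 base (11.9%), which was 11.4% of the WT cytoplasm list. Coding-exon clusters overlapped one another in 12.0% and 10.6% of the same lists, and all clusters in 9.41% and 10.2%. Stop-codon clusters of S34F cytoplasm overlapped a chromatin stop-codon cluster in 27.6%, and those of WT cytoplasm in 21.2%, against 28.2% and 23.5% for coding-exon clusters. With a chromatin cluster of any category the overlap was 38.7% of the S34F and 35.3% of the WT cytoplasm stop-codon clusters, against 37.6% and 30.5% of the coding-exon clusters. The overlaps between stop-codon clusters were 5.99% and 4.83% of the far longer chromatin list. By gene, 38 genes were in both cytoplasmic lists and 18 in all 3. For cytoplasmic lists whose median stop-codon cluster held 13 and 14 reads, a site missing from a list is not shown to be unbound. Most of the genes had clusters elsewhere too: 150 of 236 genes in S34F cytoplasm had a coding-exon cluster (63.6%), 154 of 248 in WT cytoplasm (62.1%) and 843 of 979 in WT chromatin (86.1%). Of all genes with any cluster, 51.9%, 55.7% and 64.9% had a coding-exon cluster in the same lists. The median gene had 21.6% of its own cluster reads on the stop codon in S34F cytoplasm, 24.2% in WT cytoplasm and 8.64% in WT chromatin.

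The 18 genes in all 3 lists were led, by the lowest of their 3 levels in RPM (reads scaled to 1000000 cluster reads of the list), by AURKB with 38.0 in S34F cytoplasm, 131 in WT cytoplasm and 64.4 in WT chromatin. The cyclin gene CCNL2 followed with 34.9, 62.7 and 54.4, and SRPK1, a kinase of SR proteins, with 31.9, 64.6 and 47.6. FUBP1 had 83.6 in S34F cytoplasm, 76.0 in WT cytoplasm and 30.1 in WT chromatin. These 4 genes stood above 30 RPM in all 3 lists, and their raw reads were 21 to 304. The clusters of CCNL2 and of SRPK1 in WT cytoplasm did not overlap those in either other list. Next were TRMU (tRNA modification; 14 reads in S34F cytoplasm, 21 in WT cytoplasm and 198 in WT chromatin), U2SURP (a U2 snRNP-associated protein; 16, 15 and 82), MMS22L (replication fork repair; 36, 12 and 69), DMTF1 (9, 18 and 164), TMEM161B (8, 7 and 64) and GGA2 (a Golgi adaptor; 12, 13 and 56).

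**Figure D3:**
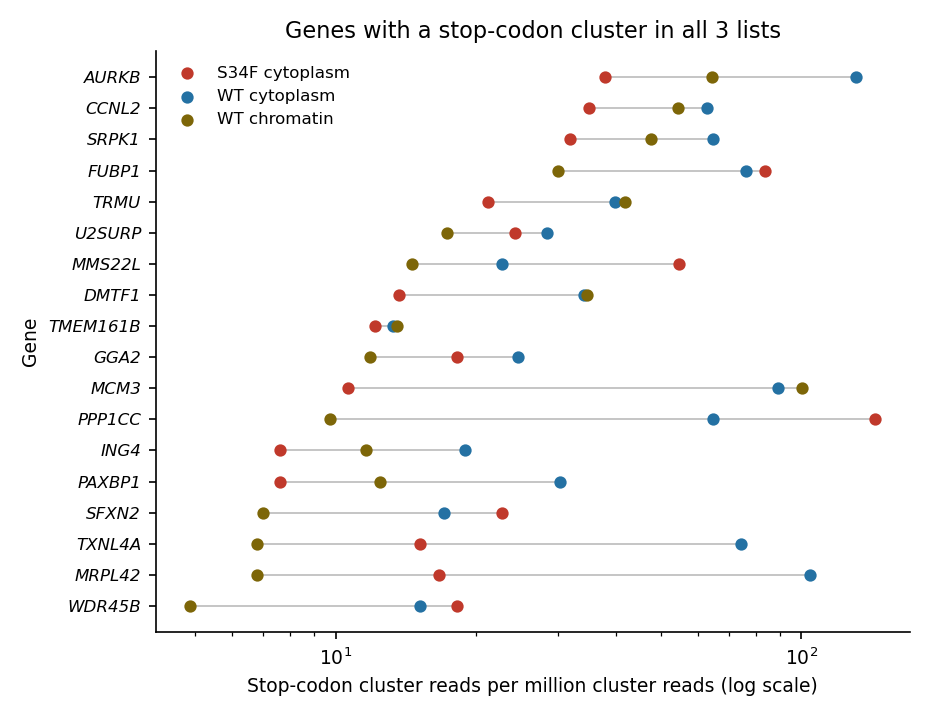
Stop-codon cluster reads in RPM (log scale) for the 18 genes that had such a cluster in all 3 lists, ordered by their lowest value. Points are the 3 pooled lists, without replicates; AURKB is at the top with 38.0 in S34F cytoplasm, 131 in WT cytoplasm and 64.4 in WT chromatin.

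Among genes with a stop-codon cluster in both cytoplasmic lists and at least 20 reads in either, S34F was the lower of the pair in 17 of 23. The median ratio of S34F over WT, in RPM, was -1.32 on the log2 scale, and -0.83 when scaled to reads on mRNA exons. S34F was the higher in 6 of the 23. Coding-exon clusters, treated the same way, had a median of -0.86 over 1837 genes, with S34F higher in 562 of them. For 3′ UTR clusters the median was -0.14 over 842 genes, with S34F higher in 391. At the low end CNBP had 25 reads in S34F and 222 in WT cytoplasm (38.0 and 422 RPM, log2 ratio -3.47), and MCM3, a replicative helicase subunit, had 7 and 47 (-3.07). They were followed by MRPL42 with 11 and 55 reads (-2.64), RPL18 with 74 and 317 (-2.42) and the spliceosome protein gene TXNL4A with 10 and 39 (-2.29). At the high end MMS22L and the oligosaccharyltransferase subunit gene OST4 each had 36 reads in S34F and 12 in WT cytoplasm (log2 ratio 1.26), PPP1CC 95 and 34 (1.16), HNRNPA1 25 and 11 (0.86) and the sialomucin gene CD164 26 and 16 (0.38). CD164 turned to -0.32 when only clusters with at least 3 conversion positions were counted. The clusters overlapped in 20 of the 23 genes, not in MCM3, CCNL2 and SRPK1, and no replicate check exists for any of these ratios.

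Between WT cytoplasm and WT chromatin, 51 of 67 genes had a higher level of stop-codon reads, in RPM, in cytoplasm. The median log2 ratio was 0.77. A gene entered only with a stop-codon cluster in both lists and at least 20 reads in either. The fewest reads of such a cluster in WT cytoplasm were 5, or 9.50 RPM, whereas 42 reads in chromatin made only 8.89 RPM. A gene at that chromatin level or below could thus only be higher in cytoplasm, so the count and the median partly follow from the choice. The medians of other categories, chosen in the same way, stood on both sides of 0.77, with 1.67 for 3′ UTR clusters over 926 genes, 1.40 for start-codon clusters over 63, 0.58 for coding-exon clusters over 3211 and -1.69 for clusters across an intron and a coding exon over 483. Cytoplasm was the higher in 749, 49, 2025 and 107 of these genes in the same order. MRPL42 was highest, with 55 reads in cytoplasm and 32 in chromatin (log2 ratio 3.95), followed by the proteasome ATPase gene PSMC5 (57 and 42; 3.61), ARL6IP1 (25 and 19; 3.56), TXNL4A (39 and 32; 3.45) and SRSF6 (45 and 37; 3.45). ATG4B was lowest, with 5 reads in cytoplasm and 2854 in chromatin (-5.99), then RBM39 (7 and 1541; -4.62), the mitotic kinase gene TTK (8 and 583; -3.02), the Elongator subunit gene ELP2 (22 and 797; -2.01) and HNRNPM (12 and 334; -1.63). ELP2 turned to 1.18 when only clusters with at least 3 conversion positions were counted. The clusters of the 2 lists overlapped in 48 of the 67 genes, and TXNL4A was among those where they did not. Scaled to reads on mRNA exons, the median over the 67 genes was 0.28.

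In the bronchial lines, the RIP libraries held 2582141 to 29769968 counts and the polysome libraries 2440145 to 13367574. Of 8 basal airway epithelial markers, 7 were above a mean of 1 CPM (counts scaled to 1000000 per library) in cytosolic RNA, and their summed level was 12553 to 22955 CPM. The summed level of 4 fibroblast markers was 6.90 to 11.1 CPM, and no leukocyte, endothelial or neuronal marker reached a mean of 1 CPM. Of the 446 genes with a stop-codon cluster in a cytoplasmic list, 441 were matched by symbol in the RIP tables and 427 in the polysome table. Their median cytosolic level per kilobase stood at the 65.9th percentile of genes with at least 10 counts in every cytosolic library, so they were expressed above the middle of all genes.

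Few stop-codon genes differed between U2AF1 precipitate and control. By edgeR's quasi-likelihood test with the line as a block, 3 of 417 genes tested were higher in IP than in IgG and 2 were lower at a Benjamini-Hochberg adjusted p under 0.05. Over all 11612 genes tested, 0.224% were higher and 1.12% lower. The median log2 difference of the stop-codon genes, IP minus IgG, was 0.10, against 0.03 over all genes tested and 0.08 over 4579 genes with a coding-exon cluster but no stop-codon cluster in a cytoplasmic list. At an unadjusted p under 0.05 there were 60 of 417 stop-codon genes and 611 of the 4579. DESeq2 called 14 of the stop-codon genes higher and 4 lower, and 210 and 426 of all 11612 genes. Computed within each line as log2(CPM + 1), the median was 0.21 in S34F, 0.32 in FS and 0.38 in WT, against 0.05, 0.19 and 0.27 over all 9745 genes of mean 5 CPM or more. All lines thus lay above 0 for both sets of genes. In bulk libraries, a lower level in every cell and the same level in fewer cells cannot be told apart.

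The 3 genes higher in IP than in IgG were RAD23B, CCNI and ARPC1A. RAD23B, a proteasome shuttle factor, stood at 138, 114 and 154 CPM in S34F, FS and WT IP, against 59.3, 40.5 and 36.6 CPM in IgG (log2 difference 1.41 ± 0.32 SE, edgeR adjusted p = 0.0352). Its IP values lay above all its IgG values, and its cytosolic RNA stood at 114, 67.5 and 107 CPM. RAD23B had 29 stop-codon reads, in WT cytoplasm only. CCNI, a cyclin-like gene, stood at 625, 537 and 894 CPM in IP, against 247, 206 and 408 CPM in IgG (1.10 ± 0.22, edgeR adjusted p = 0.0227). ARPC1A, a subunit of the actin-nucleating Arp2/3 complex, stood at 405, 454 and 440 CPM in IP, against 185, 193 and 203 CPM in IgG (0.99 ± 0.21, edgeR adjusted p = 0.0286). Both sets of IP values lay wholly above the IgG values, CCNI had 14 stop-codon reads in WT cytoplasm, and ARPC1A had 41 in S34F cytoplasm.

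The 2 genes lower in IP than in IgG were GANAB and SLC7A5. GANAB, the catalytic subunit of ER glucosidase II, stood at 153, 140 and 201 CPM in S34F, FS and WT IP, against 287, 653 and 929 CPM in IgG (log2 difference -2.00 ± 0.28 SE, edgeR adjusted p = 0.00167). SLC7A5, a large neutral amino acid transporter, stood at 4453, 3476 and 4037 CPM in IP, against 5795, 7852 and 8051 CPM in IgG (-1.04 ± 0.15, edgeR adjusted p = 0.00190). For both genes every IP value lay below every IgG value, and the difference was smallest in the S34F line. GANAB had 6 stop-codon reads in S34F cytoplasm and 14 in chromatin, and SLC7A5 had 29 in S34F cytoplasm. All 5 of these calls were lost when the WT line was left out, those of RAD23B, CCNI and ARPC1A also without the FS line, and those of RAD23B and ARPC1A also without the S34F line. Without the line as a block 0 stop-codon genes were higher and 1 lower, GANAB, and of all genes 0 were higher and 32 lower.

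The comparison with cytosolic RNA uses the same IP libraries. In it 2 of 417 genes were higher in IP and 1 was lower, where 0.491% and 0.0431% of all 11612 genes tested were. The median log2 difference, IP minus Cytosol, was -0.01 for the stop-codon genes and -0.07 over all genes. FUBP1 stood at 582, 492 and 281 CPM in S34F, FS and WT IP, against 67.1, 74.3 and 64.3 CPM in cytosolic RNA (log2 difference 2.71 ± 0.34 SE, edgeR adjusted p = 1.9e-04). It had a stop-codon cluster in all 3 PAR-CLIP lists, but its IgG libraries held 381, 894 and 923 CPM, less than IP in the S34F line and more in the FS and WT lines. IP against IgG was not called (-0.85 ± 0.33, edgeR adjusted p = 0.279). CCNI was higher again, at 625, 537 and 894 CPM in IP, against 397, 216 and 300 CPM in cytosolic RNA (1.13 ± 0.22, edgeR adjusted p = 0.0243). The CCNI call was lost without the FS line, without the WT line and without the block.

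**Figure D4:**
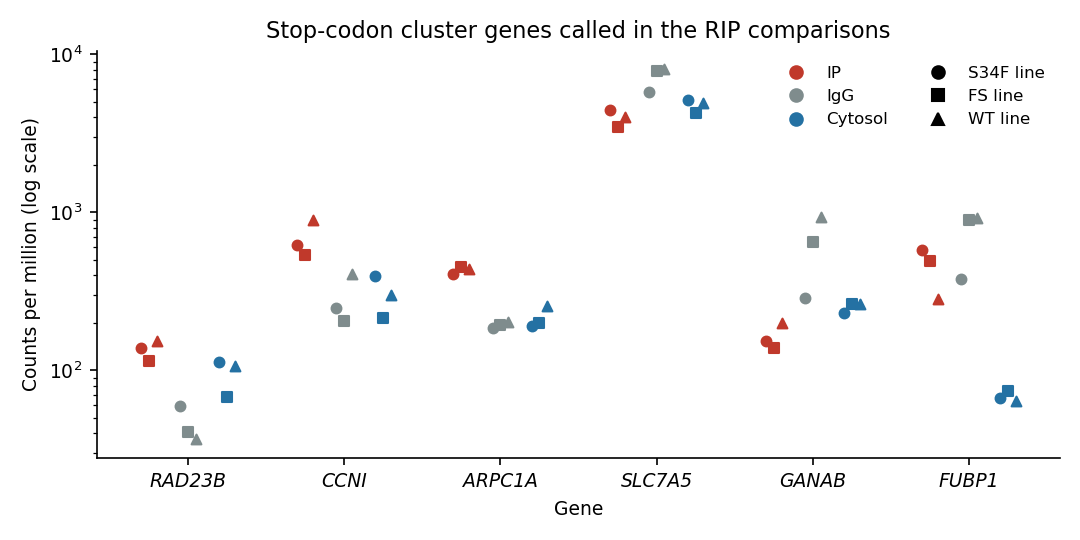
CPM (log scale) of 6 stop-codon cluster genes, those called in IP against IgG and those higher in IP than in Cytosol, with IP left of IgG and Cytosol and a marker shape per line (1 library each). RAD23B, CCNI and ARPC1A stand higher in IP than in IgG in all 3 lines, and the FUBP1 points of IP and IgG both lie above those of Cytosol.

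Neither the abundant histone sites nor the leading cytoplasmic sites were called in RIP. None of the 10 histone genes with a stop-codon cluster was called in either RIP comparison, with medians of 0.25 against IgG and -0.14 against Cytosol. HIST1H1C, for example, stood at 1362, 2218 and 1362 CPM in S34F, FS and WT IP, against 994, 1638 and 928 CPM in IgG (log2 difference 0.31 ± 0.14 SE, edgeR adjusted p = 0.362). CNBP stood at 175, 121 and 157 CPM in IP, against 87.6, 34.4 and 64.0 CPM in IgG (1.16 ± 0.32, edgeR adjusted p = 0.0953), without overlap between the groups. Of the genes used as controls, NPM1 (0.71 ± 0.21, edgeR adjusted p = 0.136), U2AF2 (-0.46 ± 0.25, 0.469), U2AF1 (0.25 ± 0.60, 0.908), GAPDH (0.10 ± 0.11, 0.760) and ACTB (-0.02 ± 0.12, 0.977) were not called in IP against IgG.

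On the gradients, genes with a cytoplasmic stop-codon cluster lay toward the heavy polysomes. In the fraction with 8-10 ribosomes, 201 of 421 genes tested were higher than in monosomes (47.7%) and 37 were lower (8.79%) by edgeR's quasi-likelihood test, where 28.3% and 21.6% of all 15945 genes tested were. The median log2 difference was 0.78 for the stop-codon genes and 0.08 over all genes. Genes with a coding-exon cluster but no stop-codon cluster in a cytoplasmic list were close to them, with 2208 of 4917 higher (44.9%), 475 lower (9.66%) and a median of 0.69. Genes of the chromatin list were close too, with 453 of 945 higher, 83 lower and a median of 0.76. The difference between the stop-codon genes and these sets was not tested. Genes of the S34F cytoplasm list had 99 of 222 higher and 24 lower, and those of the WT cytoplasm list 118 of 237 higher and 16 lower. Over the 3 lines, the median of the stop-codon genes within a line was 0.65 ± 0.36 (SD, n = 3), and that of all genes was 0.25 ± 0.19. Without the line as a block 128 were higher and 26 lower, and of all genes 2739 were higher and 2509 lower.

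The largest differences toward 8-10 ribosomes were in CDC123, SAE1, SGCE, PSMA4, MAP1B and MRPS26. CDC123, an assembly factor of initiation factor eIF2, stood at 117, 135 and 62.5 CPM in S34F, FS and WT 8-10 fractions, against 10.9, 16.1 and 19.9 CPM in monosomes (log2 difference 2.85 ± 0.38 SE, edgeR adjusted p = 1.6e-05). SAE1, a subunit of the SUMO-activating enzyme, stood at 186, 221 and 186 CPM in the 8-10 fractions, against 26.2, 33.1 and 38.4 CPM in monosomes (2.75 ± 0.32, edgeR adjusted p = 3.6e-06). PSMA4, a proteasome core subunit, stood at 100.2, 66.9 and 20.3 CPM in the 8-10 fractions, against 13.5, 6.99 and 9.36 CPM in monosomes (2.59 ± 0.45, edgeR adjusted p = 1.1e-04). In these 3 genes the lowest 8-10 value lay above the highest monosome value. MAP1B, a microtubule-associated protein gene, stood at 120, 14.8 and 58.7 CPM in the 8-10 fractions, against 7.67, 6.07 and 43.5 CPM in monosomes (2.59 ± 0.63, edgeR adjusted p = 0.00190), so its groups overlapped. Its estimate ran from 1.06 to 3.18 as each line was left out, 1.06 being without the S34F line, and without the line as a block it was not called (edgeR adjusted p = 0.243). The sarcoglycan gene SGCE (2.69 ± 0.38) and the mitochondrial ribosomal protein gene MRPS26 (2.55 ± 0.47) were also higher.

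The largest differences toward monosomes were in PARP6, RPL37A, MAZ, RPL23A, RPS29 and KHSRP. PARP6, a mono-ADP-ribosyltransferase, stood at 12.5, 7.18 and 11.4 CPM in S34F, FS and WT 8-10 fractions, against 70.4, 168 and 163 CPM in monosomes (log2 difference -3.48 ± 0.37 SE, edgeR adjusted p = 1.3e-06). RPL37A stood at 117, 77.3 and 162 CPM in the 8-10 fractions, against 909, 679 and 1015 CPM in monosomes (-2.77 ± 0.45, edgeR adjusted p = 7.4e-05). The zinc finger transcription factor gene MAZ stood at 124, 141 and 197 CPM in the 8-10 fractions, against 958, 770 and 1909 CPM in monosomes (-2.73 ± 0.39, edgeR adjusted p = 2.3e-05). All 3 were lower in each line and without overlap. RPL23A (-1.89 ± 0.35), RPS29 (-1.80 ± 0.44) and KHSRP (-1.75 ± 0.30), a KH-domain RNA-binding protein, were lower as well.

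By functional group, the counts below stand beside the 28.3% higher and 21.6% lower of all genes, and differences between groups were not tested. Of 6 ribosomal protein genes with a cytoplasmic stop-codon cluster, 4 were lower in the 8-10 fraction than in monosomes and none was higher, and of the whole list 40 of 79 were lower and 1 higher. All 7 proteasome genes with such a cluster were higher, as were all 31 of the list. Of 5 chaperone genes 4 were higher, with 18 of 23 in the list, and of 4 hnRNP genes 3 were higher, with 20 of 23 in the list. Of 6 SR protein genes, SRSF7 and TRA2B were higher and none lower, and 6 of 14 in the list were higher and 1 lower. SRSF7 stood at 131, 142 and 90.1 CPM in S34F, FS and WT 8-10 fractions, against 29.3, 50.1 and 42.6 CPM in monosomes (log2 difference 1.71 ± 0.28 SE, edgeR adjusted p = 8.0e-05). Histone genes were not analysed here on the gradients.

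**Figure D5:**
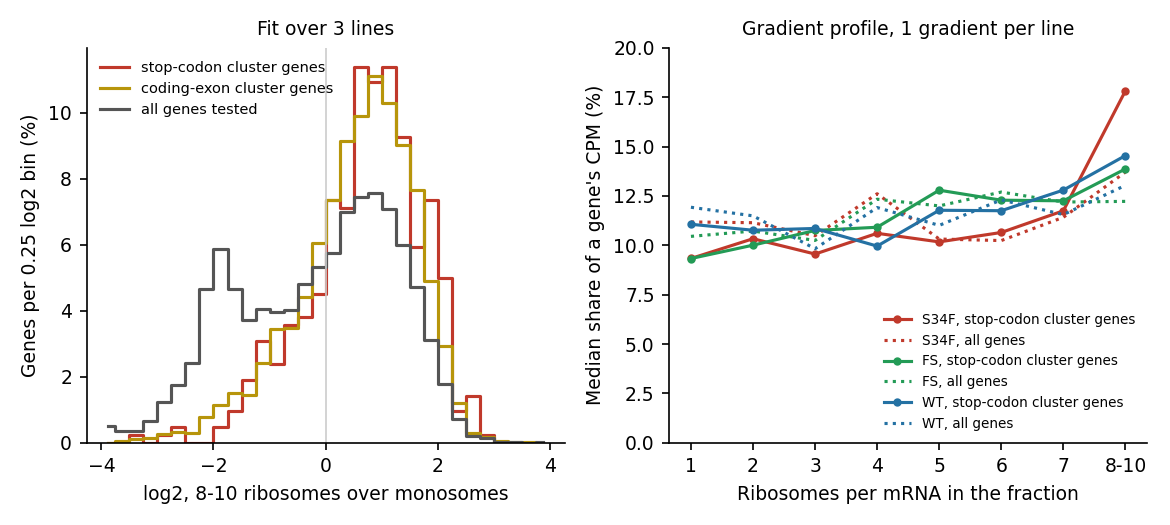
Left, percent of genes per 0.25 bin of the log2 difference between the 8-10 fraction and monosomes, fitted over the 3 lines, for 421 stop-codon cluster genes, 4917 genes with a coding-exon cluster only and all 15945 genes tested (values beyond 4 are in the end bins). Right, median share of a gene's CPM in each of 8 fractions, with 1 gradient per line and 358 stop-codon cluster genes beside 9501 genes; the S34F line has 17.8% in the 8-10 fraction, against 14.5% in WT.

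Between lines, the relative ribosome number, a CPM-weighted mean over the 8 fractions, had 1 value per gene and line and therefore no test. It was computed where each of the 3 gradients held 500 counts or more of the gene. It is an index of position and not a count of ribosomes, since CPM gives each fraction the same total. Over 358 stop-codon genes the median was 5.19 in S34F, 4.91 in FS and 4.86 in WT, and over all 9501 genes it was 4.94, 4.82 and 4.76. The median difference of S34F from WT was 0.227 for the stop-codon genes, above 0 in 251 of 358 (70.1%). Over all genes it was 0.0789, above 0 in 5531 of 9501 (58.2%). Genes with a coding-exon cluster only had a median difference of 0.203 over 3938, near that of the stop-codon genes. FS differed from WT by a median of 0.0988 for the stop-codon genes, above 0 in 237 of 358 (66.2%). Over all genes this difference was 0.0906, above 0 in 5970 of 9501 (62.8%). The highest S34F minus WT differences were in MAP1B (7.31 in S34F, 4.97 in WT), PSMA4 (7.03 and 5.08) and the clathrin interactor gene CLINT1 (6.40 and 4.65). In the FS line MAP1B stood at 5.10, PSMA4 at 6.19 and CLINT1 at 5.00. The median stop-codon gene had 17.8% of its CPM in the 8-10 fraction in the S34F line, 13.9% in FS and 14.5% in WT. The median gene with a coding-exon cluster only had 19.4%, 14.2% and 14.9%, and that of all genes 13.7%, 12.2% and 13.0%.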

How the data were processed

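PAR-CLIP in Flp-In-293 cells gave 3 cluster lists from 6 samples, and HBEC gave 9 RIP and 24 polysome libraries. The lists hold counts of reads per cluster and a conversion fraction, as the authors deposited them; every cluster has at least 4 reads and 2 conversion positions. The RIP and polysome tables hold expected counts, read so because 26.3% and 57.5% of the deposited values were not whole. TopHat, named without a version in the submitters' processing notes, is the only tool; caller, counter, strand setting and genome build are not given in the sources used here.

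Clusters were matched on the same strand, and intervals are 95% exact binomial. Expected counts were rounded and fitted with edgeR 4.0.16 (filterByExpr, TMM, quasi-likelihood, Benjamini-Hochberg over all genes at 0.05) with line as a block, because libraries of a line come from the same cells; DESeq2 1.42.0 was an alternative. Same-line deviations correlated at a median of 0.064 in RIP (0.024 to 0.133) and 0.346 in polysomes (-0.251 to 0.765). The biological coefficient of variation was 69.8% and 32.9%. The 3 lines, labelled with different U2AF1 genotypes, are the only replicates. With line as a block, p-values measure how differences between libraries of a line vary across the lines. That spread was estimated over all libraries of the assay. Scripts were tested on simulated counts. Of 1281 genes, 1261 matched by symbol in RIP and 1244 in polysomes. A count of 0 allows 3 counts, or 0.101 to 1.16 CPM per RIP library; intervals and floors cover counting error only.

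Members and gene lists were chosen with earlier results of these data known. Named genes were the 10 deepest clusters per list, up to 10 genes common to all lists, the genes called in RIP, the 6 largest per direction on the gradients, the 5 extreme ratios per direction, control genes, and up to 4 genes per list by reads. Other named genes, such as CLINT1, HIST1H3E and those shown by sequence, were chosen after their values were seen. Left out of the polysome data were 28 lines whose gene names had turned into dates. The values of 1 called gene are not reported here.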

Additional observations from a re-analysis of the deposited data

How the results depend on the processing

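The alternatives were chosen with earlier results known, and weighting by distinct reads and leaving out histone genes were added after the shares were seen. For IP against IgG, without the replicate block (line) 0 stop-codon genes were higher and 1 lower, DESeq2 gave 14 and 4 (of all genes 0 and 32, and 210 and 426), and without a filter 6 were lower (281 of all 18370 genes). Leaving out each line gave 0 to 1 higher and 0 to 4 lower (2 to 20 and 15 to 187 of all genes). Among genes with a cluster of at least 20 reads 1 was lower. For IP against Cytosol, without the replicate block 1 was higher and 0 lower with a median of 0.0699 (36 and 0 of all genes). DESeq2 gave 8 higher (89 of all genes), no filter 4 higher (110 of all 18370), genes with 20 reads 1 higher and the chromatin genes 0 lower. Leaving out each line gave 1 to 3 higher, 0 to 1 lower and medians of -0.0131 to 0.0875, with 47 to 55 higher and 1 to 7 lower of all genes. On the gradients, without the replicate block 128 were higher (2739 of all genes), no filter gave 23 lower (2804 of all 21126), genes with 20 reads 63 higher and 8 lower, and the chromatin genes 453 and 83. Leaving out each line gave 149 to 175 higher and 23 to 31 lower (24 without the S34F line), with medians of 0.68 to 0.87. Of all genes 3140 to 3716 were higher and 1939 to 2735 lower. Among the 20 calls examined, 8 were lost without the replicate block, including MAP1B and MRPS26, 5 without the FS line, 2 without the S34F line and 6 without the WT line. None of these 20 changed direction under any alternative run. The cause of these changes was not tested.

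Ribosome number: at 200 counts per gradient the S34F minus WT median was 0.288 (0.185 less the median of all genes, against 0.148). For FS the median without monosomes was 0.0138, and less the median of all genes it was 0.00508 at 200 counts, 0.00619 with 8 ribosomes for the last fraction and -0.00967 without monosomes. Shares at stop codons: for S34F cytoplasm, WT cytoplasm and WT chromatin in order they were 1.53%, 1.54% and 1.41% at 20 reads, 1.32%, 1.39% and 1.81% at 3 conversion positions, and 1.75%, 1.80% and 2.88% on mRNA exons. By reads WT chromatin had 1.98%, also without histone genes, where S34F cytoplasm had 0.676%. By distinct reads WT cytoplasm had 1.16% and WT chromatin 1.96%. Overlaps with chromatin at 50% of both clusters were 14.8% of S34F cytoplasm and 12.9% of WT cytoplasm, or 3.22% and 2.95% of chromatin. By gene they were 37.3% and 29.8%, or 8.99% and 7.56%. At 20 reads in both, 28.9% of WT cytoplasm overlapped chromatin, and 2.51% and 2.74% of chromatin overlapped S34F and WT cytoplasm. Words at 20 reads: TGA was in 88.9% and 86.7% of S34F and WT cytoplasm clusters, CAG in 73.6%, 63.9% and 65.9% of the 3 lists, a stop triplet in 98.6% and the tract in 25% of S34F cytoplasm. In clusters of 20 to 30 bases, TGA was in 68.8%, 73.1% and 67.2%, CAG in 36.6%, 30.8% and 44.8%, the tract in 8.60%, 1.92% and 10.6%, and a stop triplet in 89.9% of chromatin. Scaled to reads on mRNA exons, the median log2 ratios were -0.83 for S34F over WT cytoplasm and 0.28 for cytoplasm over chromatin. The pooled lists, shallow cytoplasmic clusters and the spread between lines in RIP limit all of these values.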
